A study of Homo sapiens with 6 samples.

Results

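A group of 10 genes of the transforming growth factor beta (TGF-β) pathway were followed on 6 arrays of SKOV3, an established human ovarian cancer cell line. The members are the ligands TGFB1, TGFB2 and TGFB3, the receptors TGFBR1, TGFBR2 and TGFBR3, the signal transducer SMAD3, and the feedback genes SMAD7, BAMBI and SKIL. The gene column of the array files repeats the probe names, so probes were assigned to these 10 genes by exact match of their sequence to a sense transcript. This gave 18 of the 125601 probes that are not controls, for 10 of the 43260 genes with a matched probe, and all 18 are described. Of these, 12 probes of 8 genes were well above background on all 6 arrays, and 6 probes were so on no array. The last 6 include every probe of TGFB3 and the sole probe of TGFBR1.

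The study compared SKOV3 cells given 1α,25(OH)2D3, the hormonally active form of vitamin D, at 100 nmol/L for 72 h with cells given an equal concentration of ethanol as vehicle for the same time. Each arm has 3 single-color Agilent arrays, and the titles abbreviate the hormone as VD. The labels are not uniform on the cells: the titles have SKOV-1, the growth note SKOV-13 and the other fields SKOV-3, and the name SKOV3 of the study's methods is used here. Nothing in the labels says whether the 3 replicates came from separate cultures, so the p-values measure only the spread between these arrays. In bulk RNA, fewer cells with a transcript and less RNA per cell cannot be told apart.

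CYP24A1, which encodes the enzyme that degrades 1α,25(OH)2D3 and is a textbook target of the vitamin D receptor, went against the labels. Its probe A_23_P28815 (hg38 chr20:54154407-54154466, minus strand, 3′ UTR in exon 12 of 12) read 2.23, 13.84 and 3.30 on the arrays labelled VD replicates 1, 2 and 3. The arrays carrying the vehicle label, replicates 1, 2 and 3, read 14.18, 4.75 and 14.34, all on the deposited log2 scale. It was well above background on the arrays labelled VD replicate 2, vehicle replicate 1 and vehicle replicate 3, and on no other. A coding probe, A_33_P3369401 in exon 10, gave the same division, with 3.88, 14.64 and 4.46 against 15.16, 8.24 and 15.25. By label the difference of A_23_P28815, VD minus vehicle, was -4.64. The paper reports CYP24A1 as the mRNA raised most by the treatment. The difference by label had the opposite sign. Which arrays came from cells given the hormone was not tested. The groups are therefore named here only by label, and a difference between labels is not read as an effect of the hormone. Each member is also described over the 3 arrays with high CYP24A1 and the 3 with low CYP24A1, with no mean or test over that division because a measured value made it.

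Slide 1 holds the arrays labelled VD replicates 1 and 2, and slide 2 holds the other 4. A value within slide 2 therefore sets the single array labelled VD replicate 3 against the 3 labelled vehicle, which alone give the spread. On each array 48.9% to 57.3% of all probes exceeded background clearly, no spot was saturated, and rank correlations between arrays lay between 0.934 and 0.959. Each of 8 epithelial carcinoma markers (KRT7, KRT8, KRT18, KRT19, EPCAM, ERBB2, PAX8 and MUC16) had a probe well above background on all 6 arrays. The same was true of PTPRC, CD3E, PECAM1, CDH5 and PDGFRB, markers of other cell types. Their brightest probes averaged 6.07 to 8.03, against 7.38 to 16.12 for the epithelial markers. Of the 16 probes of these other markers 8 were tested, against 22 of the 25 epithelial probes. Of the 8 tested probes of these other markers, 0 had an unadjusted p under 0.05 and 0 separated by label or by CYP24A1. Of the 22 tested epithelial probes, 2 had an unadjusted p under 0.05 by limma, against 6.77% of all tested probes, both lower on the arrays labelled VD (MUC16 at -0.71 and KRT19 at -0.75, adjusted p = 0.701). Of these 22, 1 separated by label (MUC16, against 12.2%) and 3 by CYP24A1 (KRT8 higher and PAX8 lower by 2 probes, against 6.17%), and their part in the results on members was not tested.

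TGF-β ligands are secreted in a latent form and, once released, bring type II and type I receptor kinases together. The type I receptor phosphorylates SMAD2 and SMAD3, which join SMAD4 and bind promoters. Several of the genes they switch on, such as SMAD7 and SKIL, dampen the pathway in return. In epithelial cancers the pathway is known both for slowing proliferation and for driving epithelial to mesenchymal transition.

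The pair of TGFB1 probes is shown because they span different splice junctions of the gene (hg38 chr19:41301587-41353922, minus strand). The first joins exons 5 and 6 of the 7 exons of the principal transcript, and the second joins exon 4 to exon 6, with 1 exon skipped between them. Both lie in coding sequence. Capitals mark the 18 bases of exon 6 that the probes share, so their readings are not independent. The other bases of OEV5_35099 lie in exon 4, which the principal transcript also holds. Its readings therefore need not come from the form that skips an exon, and the presence of that form was not tested.
A_24_P79054 (chr19:41332237-41341897): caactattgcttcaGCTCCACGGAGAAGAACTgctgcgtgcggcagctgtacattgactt
OEV5_35099 (chr19:41332265-41342210): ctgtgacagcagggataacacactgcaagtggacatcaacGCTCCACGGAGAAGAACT

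The 250 bases upstream of TGFB1 and TGFB2 are shown because these were the members whose arrays fell apart in the same way as CYP24A1. They come from RefSeq (GRCh38.p14), which held a promoter for all 10 members, and capitals mark the SMAD box CAGAC as found on either strand.
TGFB1 promoter (chr19:41353923-41354172, minus strand): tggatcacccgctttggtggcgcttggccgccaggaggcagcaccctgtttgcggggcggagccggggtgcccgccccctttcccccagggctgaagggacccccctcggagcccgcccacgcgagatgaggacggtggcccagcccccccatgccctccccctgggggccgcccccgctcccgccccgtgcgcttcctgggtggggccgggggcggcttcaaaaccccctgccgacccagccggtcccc
TGFB2 promoter (chr1:218345086-218345335, plus strand): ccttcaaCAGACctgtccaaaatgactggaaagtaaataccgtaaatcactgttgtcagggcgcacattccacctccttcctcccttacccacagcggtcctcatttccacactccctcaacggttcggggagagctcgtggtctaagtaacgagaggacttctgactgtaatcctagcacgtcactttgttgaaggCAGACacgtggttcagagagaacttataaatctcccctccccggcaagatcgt

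The TGFB2 window holds CAGAC at 243 and 53 bases before the start, and the TGFB1 window does not hold these letters. Of the 10 member promoters, 6 hold CAGAC (TGFB2, TGFB3, TGFBR1, SMAD7, BAMBI and SKIL), against 38.0% of the 35116 promoters searched. The SMAD palindrome GTCTAGAC is in none of the 10 windows and in 0.182% of all promoters. The consensus direct repeat with a 3-base spacer (DR3), one form of vitamin D response element, is in none of the 10 and in 2 promoters of all those searched.

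No member passed a test of the difference between the labels. With limma on the deposited log2 values, 0 of the 12 tested member probes had both a fold change over 2 and an unadjusted p below 0.05, as 0.747% of the 63079 tested probes did. At an unadjusted p under 0.05 alone the count was 0 of 12, against 6.77% of all tested probes, and at an adjusted p under 0.05 it was 0, against 0.0%. The methods' t-test, named there for the other experiments and run here as a second tool, also called 0 members at the fold and p threshold. In 8 of 12 probes the arrays labelled VD were lower, as they were in 50.6% of all tested probes. The differences, VD minus vehicle as labelled, lay between -0.50 and 0.19 with a median of -0.11, and the median over all tested probes was -0.00. In 0 of the 12 probes did the labelled groups fail to overlap, against 12.2% of tested probes (7.03% with VD higher and 5.17% with VD lower). The paper names TGF-β2 as a hub of the protein network of its differentially expressed mRNAs. It also names TGF-β signaling among their enriched pathways. The results by label cannot be set against these statements, since CYP24A1 went against the labels.

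**Figure D1:**
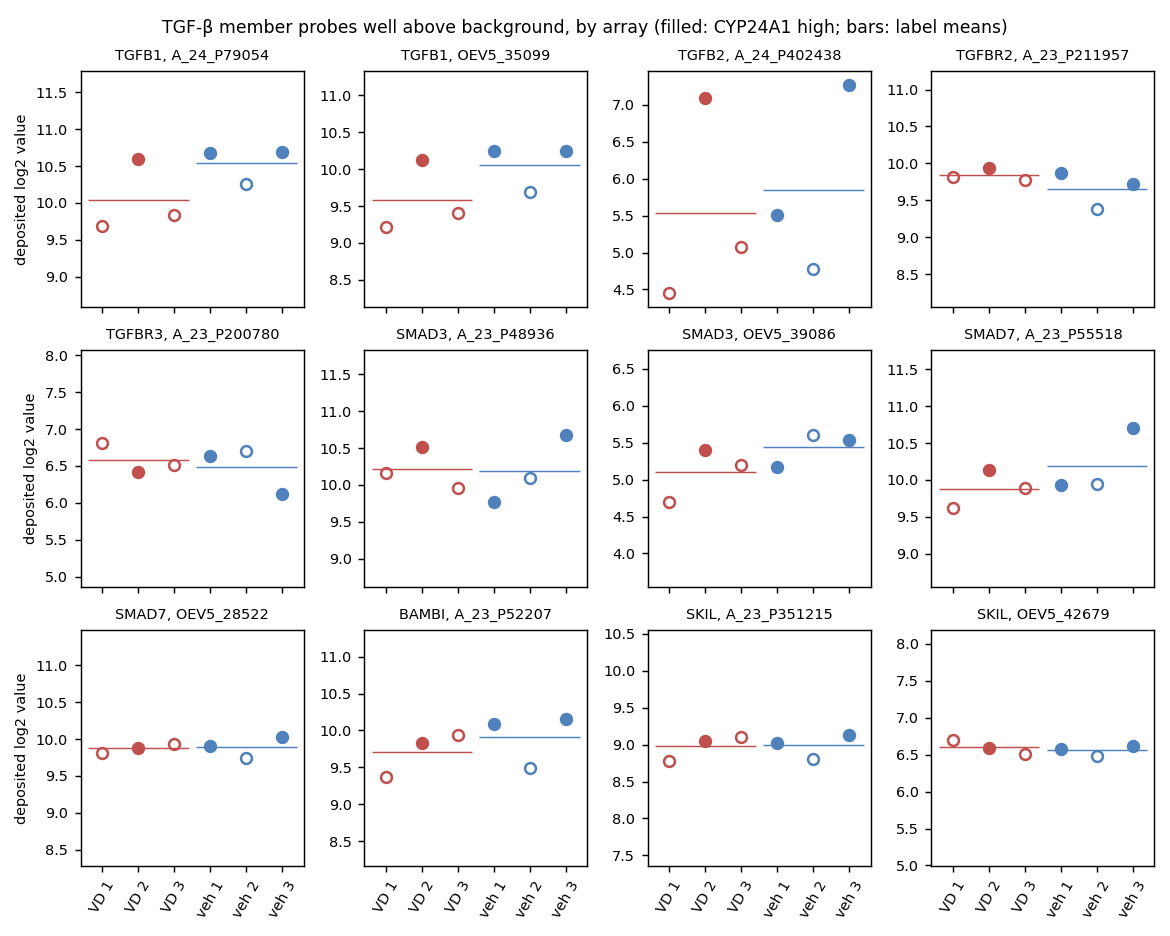
Deposited log2 value (vertical axis, each panel spanning the same number of log2 units) of the 12 member probes well above background, on each of the 6 arrays (horizontal axis). Red points are arrays labelled VD, blue points arrays labelled vehicle, filled points arrays with high CYP24A1, and bars the label means. Filled points lie above open ones in both TGFB1 panels and in TGFB2, and mix with them in the other panels.

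**Figure D2:**
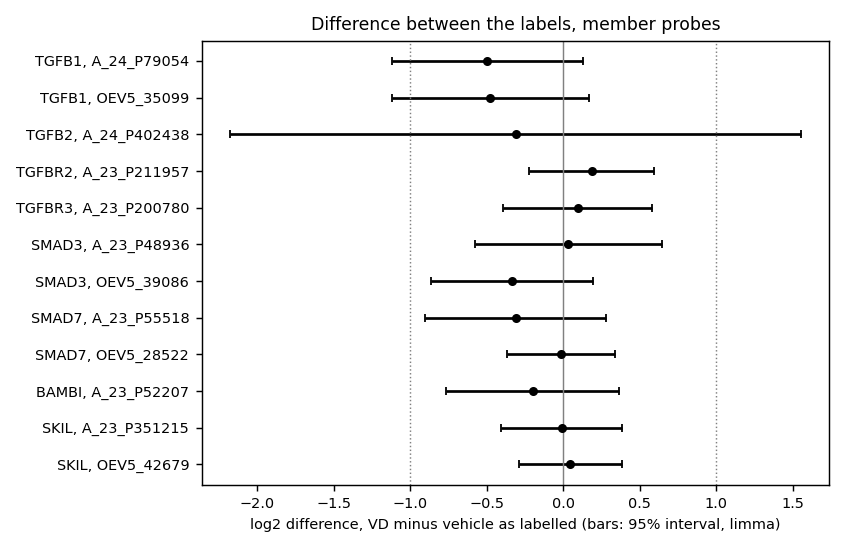
Log2 difference between the labels (VD minus vehicle, horizontal axis) for the 12 tested member probes, with 95% intervals from limma. Dotted lines mark a fold change of 2. Every interval includes 0, and the TGFB2 interval, from -2.18 to 1.55, also reaches past both dotted lines.

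Among the ligands, TGFB1, the most widely expressed form, was read at 9.69, 10.60 and 9.84 on the arrays labelled VD and 10.67, 10.25 and 10.70 on those labelled vehicle by probe A_24_P79054. The array labelled VD replicate 2 read as high as the vehicle ones, so the groups overlapped. The means were 10.04 ± 0.488 and 10.54 ± 0.25 (SD, n = 3 each), and the difference was -0.50 (SE 0.268, 95% interval -1.12 to 0.12, limma adjusted p = 0.701). The second probe, OEV5_35099, read 9.22, 10.12 and 9.41 on the arrays labelled VD and 10.24, 9.69 and 10.25 on those labelled vehicle. Its difference of -0.48 (SE 0.277, limma adjusted p = 0.702) lay within 1 SE of that of the other probe, and the difference between the probes was not tested. Within slide 2 the difference of A_24_P79054 was -0.70. Without the array labelled VD replicate 2 it was -0.78, more than 1.5 times the value over all arrays, and its unadjusted p by limma was 0.0092 with an adjusted p of 0.871.

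TGFB2, a second isoform of the ligand, varied most of the members. Probe A_24_P402438 (chr1:218441442-218441501, plus strand, 3′ UTR in exon 7 of 7) read 4.46, 7.09 and 5.08 on the arrays labelled VD and 5.51, 4.78 and 7.27 on those labelled vehicle. The arrays labelled VD replicate 2 and vehicle replicate 3 stood above the other 4. Its range of 2.81 over the 6 arrays was wider than that of 99.3% of tested probes, yet the difference between labels was -0.31 (SE 0.80, 95% interval -2.18 to 1.55, limma adjusted p = 0.926). That interval leaves room for a change above 2-fold in either direction. Its sign turned to 0.23 without the array labelled VD replicate 1 and to 0.40 without that labelled vehicle replicate 3, and within slide 2 the difference was -0.78.

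TGFB3, the remaining ligand, was not well above background. Probe A_23_P88404 (3′ UTR) read between 2.20 and 4.07 and OEV5_64617, on a non-coding transcript of the gene, between 2.27 and 2.56, so it was not tested beside the others. With no filter on background, limma gave the first probe an adjusted p of 0.941.

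When the arrays were set out by CYP24A1, both ligands that were detected were higher where CYP24A1 was high. TGFB1 read 10.60 to 10.70 on the 3 arrays with high CYP24A1 and 9.69 to 10.25 on the 3 with low CYP24A1, a gap of 0.35 between the nearest arrays by A_24_P79054 and of 0.43 by OEV5_35099. TGFB2 read 5.51 to 7.27 and 4.46 to 5.08, with a gap of 0.43. The order on each slide follows from these ranges and is no separate check. On slide 1 TGFB1 read 9.69 with low and 10.60 with high CYP24A1, and TGFB2 read 4.46 and 7.09. On slide 2 TGFB1 read 9.84 and 10.25 with low and 10.67 and 10.70 with high CYP24A1, and TGFB2 read 5.08 and 4.78 with low and 5.51 and 7.27 with high CYP24A1. In all, 3 of the 12 tested member probes were higher without overlap and 0 were lower, against 3.29% and 2.88% of all tested probes, or 6.17% in either direction. The pair of TGFB1 probes shares bases, so the 3 probes stand for 2 genes. The share of probes well above background did not divide the arrays in this way, with 52.5% to 54.3% where CYP24A1 was high and 48.9% to 57.3% where it was low.

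**Figure D3:**
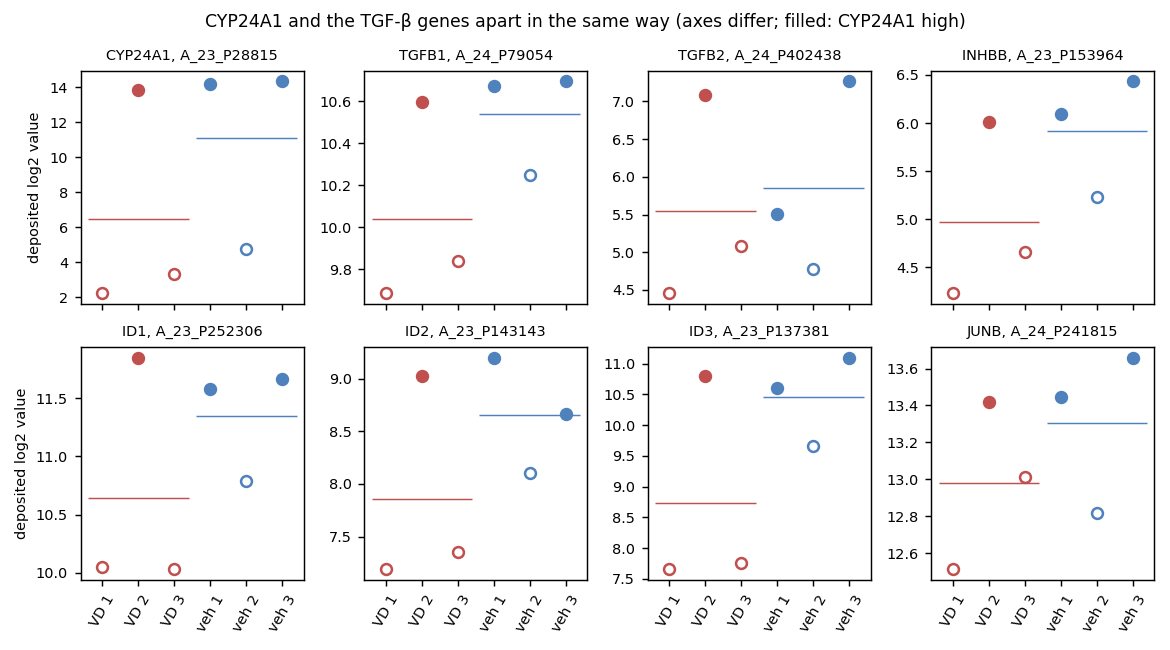
Deposited log2 value (vertical axes, which differ between panels) on each of the 6 arrays for CYP24A1, TGFB1, TGFB2 and 5 other genes of the pathway. Red points are arrays labelled VD, blue points arrays labelled vehicle, filled points arrays with high CYP24A1, and bars the label means. In every panel the 3 filled points lie above the 3 open ones, and the panels were chosen for this.

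The genes whose array profiles lay closest to that of TGFB2 were sought among 46379 named probes of 24610 genes, by the root mean square difference of array-centred values over the 6 arrays. They were TXNRD1 (OEV5_44307, 0.513), which encodes a thioredoxin reductase, ADAM19 (A_23_P81369, 0.513), a membrane metalloprotease, and BCAS1 (A_23_P17420, 0.521). ADAM19 read 7.75, 8.87 and 7.61 on the arrays labelled VD and 7.68, 7.60 and 9.26 on those labelled vehicle, high on the same 2 arrays as TGFB2. TXNRD1 read 4.34, 6.05 and 4.66 on the arrays labelled VD and 5.26, 4.30 and 5.67 on those labelled vehicle. BCAS1 read 5.61, 6.70 and 5.50 against 6.63, 5.57 and 7.79. TXNRD1 and BCAS1 were higher without overlap where CYP24A1 was high, and ADAM19 was not. All were picked for likeness to TGFB2, which was also higher there. The ranges of these genes, 1.66 to 2.29, were narrower than that of TGFB2.

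Of the receptors, TGFBR2, the type II receptor that binds ligand first, had the narrower range of the pair tested. Probe A_23_P211957 (chr3:30693671-30693730, 3′ UTR in exon 7 of 7) read 9.81, 9.93 and 9.78 on the arrays labelled VD and 9.87, 9.38 and 9.72 on those labelled vehicle. Its difference was 0.19 (95% interval -0.22 to 0.59, limma adjusted p = 0.780), and the array labelled vehicle replicate 2 was the lowest.

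TGFBR3, or betaglycan, a coreceptor that presents TGF-β2 in particular, read 6.81, 6.42 and 6.51 on the arrays labelled VD and 6.64, 6.70 and 6.13 on those labelled vehicle by A_23_P200780. The groups overlapped, with a difference of 0.09 (95% interval -0.39 to 0.58, limma adjusted p = 0.913). Its other probes, OEV5_30711 and OEV5_30831, lie on non-coding transcripts and were well above background on no array. TGFBR1, the type I receptor kinase, has 1 probe, A_33_P3331451 in the 3′ UTR, which read 2.06 to 3.22 and was likewise well above background on no array. The intervals of both tested receptors lie inside a fold change of 2.

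SMAD3, the transducer that carries the signal to the nucleus, read 10.16, 10.52 and 9.96 on the arrays labelled VD and 9.78, 10.10 and 10.67 on those labelled vehicle by A_23_P48936 (3′ UTR). The highest and the lowest array both carry the vehicle label, and the difference was 0.03 (95% interval -0.58 to 0.64, limma adjusted p = 0.979). A probe on a non-coding transcript of the gene, OEV5_39086, had a difference of -0.34 (limma adjusted p = 0.718). The sign of the first probe was negative within slide 2, at -0.22.

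Of the feedback genes, SMAD7, the inhibitory SMAD that blocks the type I receptor, read 9.62, 10.13 and 9.89 on the arrays labelled VD and 9.93, 9.94 and 10.70 on those labelled vehicle by A_23_P55518 (3′ UTR). The array labelled vehicle replicate 3 stood above the other 5, and the difference was -0.31 (95% interval -0.90 to 0.28, limma adjusted p = 0.75). Its other probe, OEV5_28522, which crosses a splice junction of a non-coding transcript, differed by -0.01. It was also highest on that array, at 10.02, but ranged over 0.28 in all.

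BAMBI, a decoy receptor that lacks a kinase, read 9.37, 9.83 and 9.94 on the arrays labelled VD and 10.09, 9.49 and 10.16 on those labelled vehicle. Its difference was -0.20 (95% interval -0.77 to 0.36, limma adjusted p = 0.823), and within slide 2 it was 0.03. SKIL, or SnoN, a corepressor that binds SMADs, read 8.78, 9.05 and 9.10 on the arrays labelled VD and 9.02, 8.81 and 9.13 on those labelled vehicle by its coding probe. That difference was -0.01 (95% interval -0.41 to 0.38, limma adjusted p = 0.989), and within slide 2 it was 0.11. A probe on a non-coding SKIL transcript differed by 0.05. The highest reading of SMAD7, BAMBI and SKIL came in each case from the array labelled vehicle replicate 3, as did those of TGFB1, TGFB2 and SMAD3 by their brightest probes. For TGFBR2 that array was not the highest, and for TGFBR3 it was the lowest. By their other probes SMAD3 was highest on the array labelled vehicle replicate 2, at 5.61, and SKIL on that labelled VD replicate 1, at 6.70. The share of all tested probes that were highest on the array labelled vehicle replicate 3 is not given here.

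The rest of the pathway was described with 65 further genes, of which 63 had a probe. Of their 174 probes, 129 probes of 54 genes were tested. By limma, 0 of 129 passed the fold and p threshold, 8 had an unadjusted p under 0.05 (3 higher and 5 lower on the arrays labelled VD), and 0 had an adjusted p under 0.05. That is 8 of 129 beside the 6.77% of all tested probes. Of the 129, 13 were not well above background on all 6 arrays and passed through 1 label only, among them 1 of the 8 (LDLRAD4). Across the list 63 probes were higher and 66 lower, with a median of -0.02.

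**Figure D4:**
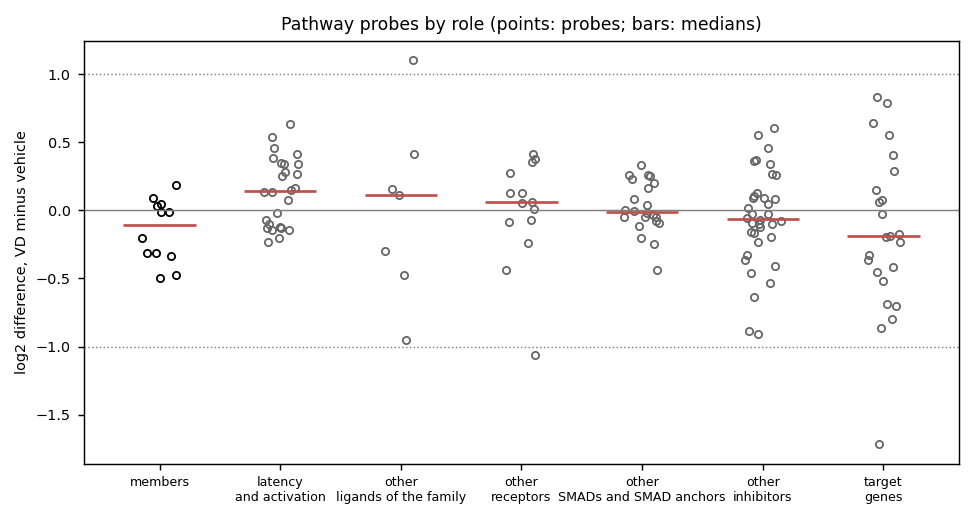
Log2 difference between the labels (VD minus vehicle, vertical axis) of every tested probe, by role in the pathway (horizontal axis). Points are probes, red bars medians and dotted lines a fold change of 2. Members lie between -0.50 and 0.19, and the widest spread is among target genes, down to -1.72 for ID3.

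Probes of latency and activation genes, which hold the ligands in the matrix and release them, ranged from THBS1 at -0.23 to ITGB6 at 0.63. THBS1 is a matrix protein that can free latent ligand, and ITGB6 is an integrin subunit that does the same. The THBS1 value is from A_33_P3415820. Its brightest probe, OEV5_44963, differed by 0.42, and OEV5_48399 and OEV5_51419 by -0.13 and -0.07. The median of this role was 0.14, with 16 of 26 probes higher. Other ligands ranged from INHBB, an activin subunit, at -0.95 to GDF15, a stress-induced ligand, at 1.11. GDF15 read 7.39, 6.39 and 8.91 on the arrays labelled VD and 6.68, 6.42 and 6.27 on those labelled vehicle, with the arrays labelled VD replicates 1 and 3 above the other 4. Other receptors ranged from ENG, the coreceptor endoglin, at about -1.06 to ACVR2A, an activin receptor, at 0.42 by a probe on a non-coding transcript. The ENG probe was well above background on 2 of the 3 arrays labelled VD and all 3 labelled vehicle, and its reading of 3.80 on the array labelled VD replicate 1 was not. No adjusted p of these 6 genes was below 0.701.

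Other SMADs and their anchors ranged from SMAD9 at -0.44 to SMAD1 at 0.33, both transducers of bone morphogenetic proteins. Other inhibitors ranged from FSTL3, which binds activins, at -0.91 to LEMD3, a nuclear envelope protein that binds SMADs, at 0.60 by a non-coding transcript. FSTL3 read 9.89, 10.23 and 10.50 on the arrays labelled VD and 10.38, 11.37 and 11.60 on those labelled vehicle (limma unadjusted p = 0.026, adjusted p = 0.701). Target genes ranged from ID3 at -1.72 to FN1, which encodes fibronectin, at 0.84. Their median was -0.19, with 15 of 24 probes lower, and all of these values keep an adjusted p of at least 0.701.

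By CYP24A1, 11 of the 129 list probes were higher without overlap and 4 were lower, beside the 3.29% and 2.88% of all tested probes. For 6 of the 11 the gap between the nearest arrays was at most 0.2. The other 5, named after their values were seen, were INHBB and the target genes ID1, ID2, ID3 and JUNB, with gaps of 0.78, 0.78, 0.56, 0.94 and 0.41. ID1, ID2 and ID3 encode inhibitors of helix-loop-helix transcription factors that respond to SMAD signals, and JUNB encodes a subunit of the factor AP-1.

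ID3 read 7.65, 10.80 and 7.76 on the arrays labelled VD and 10.60, 9.67 and 11.10 on those labelled vehicle. The array labelled vehicle replicate 2 lay between the other 2 arrays with low CYP24A1 and the 3 with high CYP24A1. In 4 of these 5 genes, and in both TGFB1 probes, it was the highest of the 3 arrays with low CYP24A1, and it was also the highest of these for CYP24A1 itself. The 4 lower probes belong to LTBP4 and SMAD4, with 2 probes each and gaps between 0.01 and 0.16.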

How the data were processed

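Labels gave 3 arrays for VD and 3 for vehicle. The authors scanned them on an Agilent scanner, extracted signals with Agilent Feature Extraction 10.7.1.1 and deposited each spot's intensity with its background and flags. They also deposited a table of log2 values, 1 per probe and array, whose sorted columns differ by at most 0.000913, as quantile normalization would leave them; the rank correlation with the scanner signal was at least 0.9998. The table held 0 columns of other samples. Quantile normalization equalizes the arrays, so a shift of all genes would not be seen, and the number of arrays limits the precision. The software and genome build used for annotation beyond the array header are not given in the sources used here.

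Probes were matched without mismatch to GENCODE release 44 transcripts (hg38), which placed 90604 probes (72.1%), 4190 of them in several genes. A probe was tested if it was well above background on every array of either label, with limma 3.58.1 in R 4.3.3 (lmFit and eBayes, no covariate), with Benjamini-Hochberg adjustment over all 63079 probes. For a member, the probe with the highest mean stood for the gene. The ranges given per pathway role run over all tested probes. The fit was run on simulated data with independent noise and changes that followed the labels. That run cannot check the labels or the slides of the real arrays.

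The named genes are all members, CYP24A1, per pathway role the genes with the largest difference in each direction, any list gene past the fold and p threshold, and the 3 genes nearest to the member of widest range. The members and lists were chosen with earlier results of these data known. Alternatives were scanner signals scaled to the 75th percentile, normexp correction with an offset of 50 and quantile normalization, no filter, a filter on all 6 arrays, replicate or slide as a block, slide 2 alone, the methods' t-test (not their test for arrays, which was limma), the mean of a gene's probes, and each array left out in turn. Replicate numbers were checked for pairing and were not taken to pair the arrays. KLF10 and LRRC32 of the list are not analysed here, as no probe matched them.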

Additional observations from a re-analysis of the deposited data

How the results depend on the processing

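The count of member probes past the fold and p threshold, or with an adjusted p under 0.05, was 0 under every alternative run, and 0 with each array left out. The count of 3 member probes that separate by CYP24A1 was 3 under the alternatives added after seeing the data. With the replicate number as a block the TGFB1 difference was -0.50 (limma adjusted p = 0.670), and the pathway list had 1 probe past the fold and p threshold (ENG, which passed the filter through the vehicle label alone) in place of 0; correlations of deviations between same-numbered arrays were 0.12, 0.09 and -0.03, and 3 of 6 arrays correlated best with their own number, so the numbers were not taken to pair the arrays. The list had 3 such probes with slide as a block (FN1 with 2 probes, and GDF15), 5 within slide 2 (FN1, GDF15, ID1, ID2 and ID3), where the VD arm is 1 array assumed to vary like the vehicle arrays, and 1 to 7 with an array left out, the most without the array labelled VD replicate 2. Over all probes the count at that threshold was 471, 33 with normexp, 1612 with no filter, 154 with the filter on all arrays, 804 with the slide block, 795 within slide 2, 581 with the replicate block, 139 by the methods' t-test, and 295 to 1180 with an array left out (704 without VD replicate 2). At an adjusted p under 0.05 it was 0, except 4 without vehicle replicate 1.

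For the 8 members above background, 57 differences kept their direction and 7 turned it under the alternatives other than leaving out single arrays. The slide block and slide 2 alone are counted once there, since both set VD replicate 3 against the vehicle arrays and give 1 estimate. SMAD3 turned to -0.086 with normexp, to -0.22 with the slide block (or slide 2 alone), and to -0.15 for the mean of its probes. BAMBI turned to 0.027 with the slide block (or slide 2 alone). SKIL turned to 0.081 with normexp, to 0.11 with the slide block (or slide 2 alone), and to 0.017 for the mean of its probes. The cause was not tested. With an array left out the differences ranged from -0.78 to -0.32 for TGFB1, -1.09 to 0.40 for TGFB2, 0.05 to 0.29 for TGFBR2, -0.089 to 0.20 for TGFBR3, -0.17 to 0.28 for SMAD3, -0.44 to -0.06 for SMAD7, -0.41 to -0.03 for BAMBI and -0.10 to 0.089 for SKIL. TGFB3 and TGFBR1 were well above background on no array, so no direction is read from them.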
